A study of Mus musculus with 89 samples.

Results

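RNA helicases of the DEAD and DEAH families were examined in RNA of the nucleus accumbens, part of the reward circuit of the mouse brain. They were taken as the genes whose mouse symbols start with Ddx or Dhx and a digit. Members were chosen by symbol alone, leaving out Ddx58 and Dhx58. This gave 34 genes, 23 Ddx and 11 Dhx, among 9542 genes of one exon skipping table, and 7 genes among 3434 of another. In all 35 members were listed in either table, 6 in both, and 16 of the 51 symbols that match the rule stood in neither. The symbols in neither table were Ddx10, Ddx18, Ddx19b, Ddx20, Ddx23, Ddx25, Ddx27, Ddx28, Ddx39b, Ddx3x, Ddx46, Ddx51, Ddx6, Dhx15, Dhx29 and Dhx38.

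These enzymes use ATP to unwind RNA or to strip proteins from it. DEAD-box members mostly open short duplexes where they bind, and DEAH-box members move along a strand. Together they serve splicing, mRNA export, translation, mRNA decay and ribosome assembly, and several drive the remodelling steps of the spliceosome. In neurons, as in other cells, most are housekeeping genes, whereas a few are induced by interferon or belong to germ cells.

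The study asked how the histone mark H3K36me3, which Set2 enzymes place over transcribed genes, relates to alternative splicing after cocaine. It holds 89 samples in 21 groups. All RNA samples came from micro-punches of the nucleus accumbens of wild type C57BL/6 mice, 8 weeks of age. Of these, 9 were libraries after herpes simplex virus (HSV) delivery of Set2 (HSV-Set2), of a form labelled R195G (HSV-R195G) or of GFP (HSV-GFP), with 3 libraries per group. Another 32 were sequencing runs after dCas9-SET2, a Cas9 without cutting activity joined to SET2, guided to Srsf11, the gene of a splicing factor (dCas9-SET2-sgRNA-SRSF11) or given a non-targeting guide (dCas9-SET2-sgRNA-NT). Each guide had 16 runs under 4 sample names. The labels do not say how many animals a sample holds or which cells the vectors reached.

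The HSV table lists reads for 2 sets, called here the 3-library set and the 2-library set by their size, and the dCas9-SET2 table lists a second and a first set of 16 runs each. Neither names the libraries, so no treatment was assigned to a set, and every difference below is one between unnamed sets. The 5 libraries of the HSV table are fewer than the 9 that were labelled. Where nothing states that libraries came from separate animals, p-values measure only the spread between these libraries.

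The 5 HSV libraries held 7428974 to 8341849 reads over listed events in the 3-library set, against 8366275 and 8638249 in the 2-library set. The sets differed in much more than helicases, and 22.7% of the 8201 genes tested changed in coverage (limma, adjusted p below 0.05). All 21 measured genes of an interferon response list were higher in the 3-library set, with a median log2 difference of 3.70 and a summed level of 4888 to 5363 CPM (reads scaled to library size) in its libraries, against 725 and 887 CPM in the 2-library set. Markers of medium spiny neurons, the main neurons of this region, were lower for 12 of 13 measured genes, at 4192 to 4419 CPM in the 3-library set against 12469 and 10199 in the 2-library set. Markers of microglia were higher for 6 of 11 genes, of oligodendrocytes for 7 of 9, of astrocytes for 2 of 6 and of cortical neurons for 1 of 1. Summed microglia markers stood at 2085 to 2272 CPM in the 3-library set, against 973 and 2274 in the 2-library set. Those of oligodendrocytes stood at 8303 to 10832, against 6361 and 8577, so that both sums overlapped between the sets. Astrocyte markers summed to 3843 to 3886, against 3622 and 3788. None of the 8 vascular markers was measured. Replicate 2 of the 2-library set stood apart by choroid plexus markers, whose 2 measured genes summed to 9966 CPM, against 434 in replicate 1 and 28.5 to 37.5 in the 3-library set. The part of these differences in the helicase results was not tested. In such bulk tissue, fewer cells of a type and less RNA per cell cannot be told apart.

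Ddx60, an interferon-induced helicase that has been linked to antiviral sensing in human cells, and Ddx24, a helicase of ribosome assembly, were the 2 members higher in the 3-library set, and their promoters are shown here for that reason. The windows run from 250 bases before to 50 after the start of the gene in RefSeq on GRCm38.p6, in transcript direction. Capitals mark matches to GAAANNGAAA, the core of the element that binds interferon-activated factors, searched on both strands. The Ddx60 window is chr8:61927837-61928136 on the plus strand, and the Ddx24 window is chr12:103425798-103426097 on the minus strand.
Ddx60: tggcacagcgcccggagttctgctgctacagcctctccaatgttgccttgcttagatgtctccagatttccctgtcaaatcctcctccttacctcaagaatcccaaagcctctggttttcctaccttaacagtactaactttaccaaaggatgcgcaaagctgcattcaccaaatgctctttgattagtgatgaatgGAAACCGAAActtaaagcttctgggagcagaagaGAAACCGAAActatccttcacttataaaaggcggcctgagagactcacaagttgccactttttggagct
Ddx24: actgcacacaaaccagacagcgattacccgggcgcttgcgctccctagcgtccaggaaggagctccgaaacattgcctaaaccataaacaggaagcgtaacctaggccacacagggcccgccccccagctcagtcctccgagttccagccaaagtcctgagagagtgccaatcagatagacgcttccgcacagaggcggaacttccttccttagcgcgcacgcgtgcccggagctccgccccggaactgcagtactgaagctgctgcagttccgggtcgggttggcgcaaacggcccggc

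The Ddx60 window held 2 matches, beginning 53 and 19 bases before the start, and the Ddx24 window held none. Of all 32851 promoter windows, 3.44% held at least 1 match and 0.225% at least 2. Of the 43 windows of the 33 members with an entry, 3 held a match, 1 of Ddx60 and 2 overlapping ones of Ddx49, which assembles ribosomes. Of the 15 measured interferon response genes with a window, 6 held a match, against 3.99% of all genes with a window. That list holds genes chosen for their response to interferon, so its share is a description and was not tested. A match is a description of the sequence and not a measured site.

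Coverage means the CPM of the event with most reads of a gene, scaled with TMM factors. It was used as a partial stand-in for expression. Of the 34 members, 31 passed the filter of a mean of 20 reads per library, Ddx60 and Ddx31 only through their reads in the 3-library set. Of these, 2 were higher (Ddx60 and Ddx24) and 2 lower (Ddx5 and Dhx32) in the 3-library set. Over all genes tested 22.7% were called, 13.2% as higher and 9.47% as lower. Ddx60 had to differ to pass the filter, so its call is a description. Ddx31 had 25, 27 and 34 reads in the 3-library set, against 19 and 16 in the 2-library set. It was not called and is kept below, where its place above 0 and its lack of overlap are descriptions. For the 30 members without Ddx60 the median log2 difference was -0.15, with 9 above 0 and 21 below. Over all genes the median was 0.0005, with 4097 of 8201 below 0. The sets did not overlap for 14 of the 30, against 49.8% of all genes. The other 27 tested members did not pass the threshold. Without replicate 2 of the 2-library set, the library with choroid plexus markers, the log2 differences kept their direction. They were 5.61 for Ddx60, as a description, 0.29 for Ddx24, -0.67 for Ddx5 and -0.75 for Dhx32. The remaining library is then assumed to vary like those of the 3-library set.

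**Figure D1:**
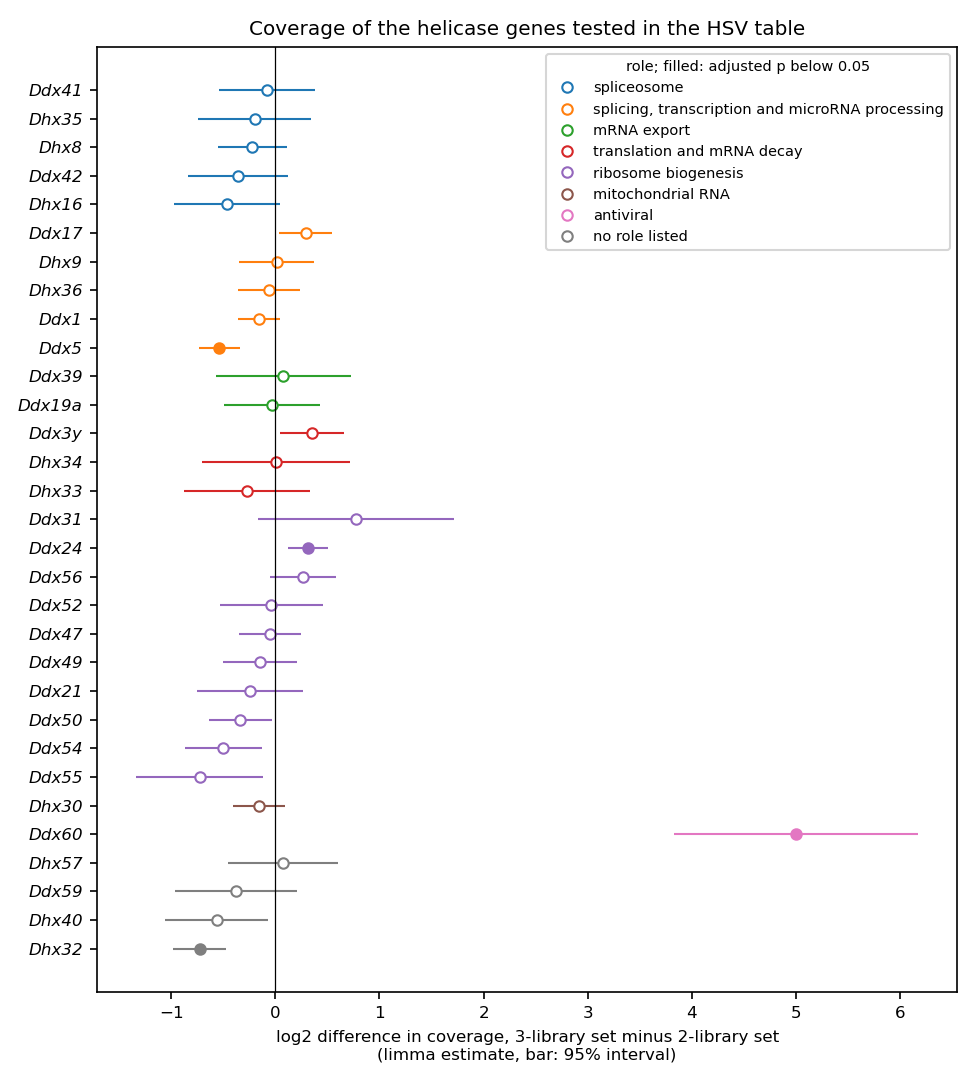
Log2 difference in coverage, 3-library set minus 2-library set, for the 31 tested helicase genes, ordered by role and then by value. Points are limma estimates, bars 95% intervals and filled points have an adjusted p below 0.05. Ddx60 stands at 5.00, apart from the other members, which lie between -0.73 and 0.78. Its filled point is a description, since it passed the read filter only through the 3-library set.

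Ddx60 had 66, 65 and 75 reads over its deepest event in the 3-library set, against 1 and 3 reads in the 2-library set. That was 16.1, 17.5 and 20.6 CPM in the 3-library set, against 0.246 and 0.739 in the 2-library set. The sets did not overlap, and the gene was close to unread in both libraries of the 2-library set. The fitted log2 difference was 5.00, given as a description with no test, since the gene passed the filter only where it is high. With only 4 reads in the 2-library set this value depends on the number added to each count and was 4.28 with 2 added in place of 0.5. The ratio of the pooled reads was 36.5, with a 95% interval of 14.0 to 135 that covers counting error only. All 9 listed events of Ddx60 went the same way, with log2 differences of 3.62 to 5.69, and none overlapped between the sets. Summed over those events the gene had 364, 315 and 345 reads in the 3-library set, against 8 and 23 in the 2-library set. The gene moved with the interferon response list given above, among which Ifih1, a helicase that senses viral RNA, had a log2 difference of 3.56 and Oasl2 one of 6.27. Those values, too, are given as a description. What part that response has in the coverage of Ddx60 was not tested.

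Ddx5, known as p68, acts in splicing, transcription and the processing of microRNA precursors. It had 5237, 5321 and 4639 reads in the 3-library set, against 8556 and 7143 in the 2-library set. Its scaled coverage was 1275, 1432 and 1271 CPM in the 3-library set, against 2106 and 1759 in the 2-library set. Every library of the 3-library set lay below both of the 2-library set. The log2 difference was -0.54 ± 0.09 (SE), a 0.688-fold level, with an adjusted p of 0.00084 in limma. All 8 listed events of Ddx5, summing to between 19779 and 32403 reads per library, were lower, by log2 differences from -0.54 to -0.28, and none overlapped. The exon with most reads is 1550 nt long, and the 7 other events, of 60 to 225 nt, gave the same direction. Among those, the 225-nt exon and the 60-nt exon are each listed more than once and lie within the 1550 nt. The events share reads, so they are not separate measurements, and the sums can count a read more than once.

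Ddx17, or p72, is the closest relative of Ddx5 and acts in the same processes. It had 871, 964 and 740 reads in the 3-library set, against 714 and 770 in the 2-library set. In CPM it stood at 212, 259.5 and 203 in the 3-library set, against 176 and 190 in the 2-library set, so that the sets did not overlap. Its log2 difference of 0.29 ± 0.12 (SE) missed the threshold in limma, with an adjusted p of 0.0957. All 4 of its listed events were above 0, from 0.17 to 0.30. Among the fits with a library left out it passed only without replicate 2 of the 2-library set. How far reads of these related genes could be split by the authors' counting was not examined.

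Dhx32, a DEAH member for which no role was listed, had 309, 295 and 292 reads in the 3-library set, against 533 and 520 in the 2-library set. That was 75.2, 79.4 and 80.02 CPM in the 3-library set, against 131 and 128 in the 2-library set. The libraries of each set lay close together and the sets far apart. The log2 difference was -0.73 ± 0.12 (SE), a 0.604-fold level, with an adjusted p of 0.000602 in limma. Its other listed event, an exon of 194 nt, was lower by a log2 difference of -0.83.

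Ddx24, a nucleolar helicase of ribosome assembly, had 1374, 1195 and 1296 reads in the 3-library set, against 1122 and 1077 in the 2-library set. That was 334.5, 322 and 355 CPM in the 3-library set, against 276 and 265 in the 2-library set. The sets did not overlap, but the change was small. The log2 difference was 0.32 ± 0.09 (SE), a 1.24-fold level, with an adjusted p of 0.0218 in limma. Its adjusted p was 0.0758 without replicate 1 of the 3-library set and 0.102 without replicate 3, with log2 differences of 0.32 and 0.28 that were about as large. Both listed events were higher, by 0.25 and 0.32 on the log2 scale.

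**Figure D2:**
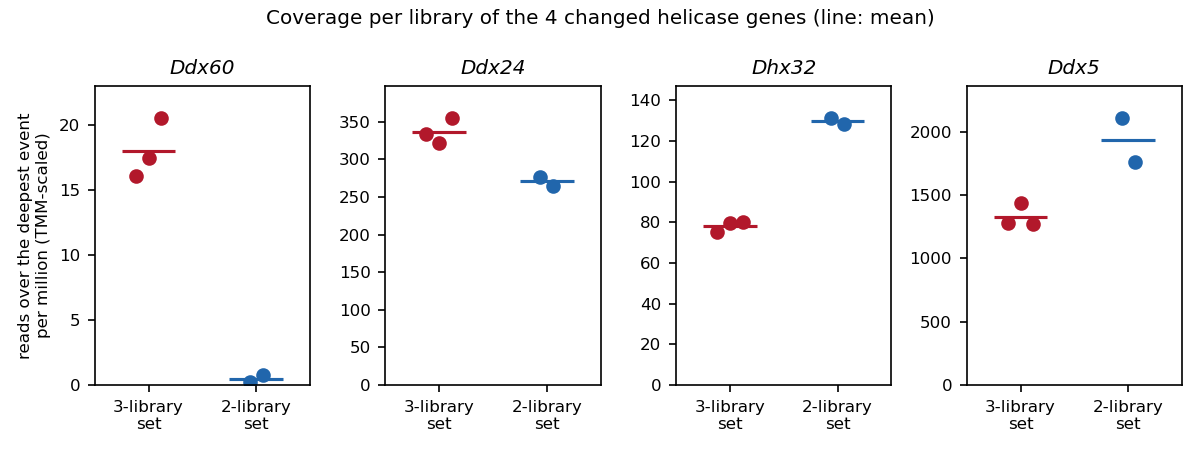
CPM over the deepest listed event of the 4 helicase genes with changed coverage, per library, with the 3-library set left and the 2-library set right in each panel. Lines are means, each axis starts at 0, and the sets do not overlap for any of the 4 genes. Ddx60 is shown as a description, since it passed the read filter only through the 3-library set.

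By roles, the spliceosome list held 10 helicases, of which 5 were measured. In limma 0 of them passed, against 22.7% of all genes, with 0 at an unadjusted p below 0.05, against 34.2%. These were Dhx16, which acts in the activation of the spliceosome, Dhx8, which releases the finished mRNA, Ddx42, which binds with the branch site complex, and Ddx41 and Dhx35. All 5 differences lay below 0, from -0.47 to -0.08 on the log2 scale, with a list median of -0.22 against 0.0005 over all genes. Dhx16 had 39.4, 22.1 and 29.9 CPM in the 3-library set, against 40.1 and 41.9 in the 2-library set. Its difference of -0.47 had a 95% interval from -0.98 to 0.04, so a fall of about that size or no change at all were both within the error. Dhx8 had 50.1, 52.5 and 45.2 CPM in the 3-library set, against 58.3 and 56.4 in the 2-library set, with an adjusted p of 0.338. Ddx42 had 35.1, 39.8 and 24.4 CPM in the 3-library set, against 38.6 and 44.8 in the 2-library set, and the sets overlapped.

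The list of splicing, transcription and microRNA processing held 5 measured members, of which 1, Ddx5, passed, near the 22.7% of all genes. Dhx9, or RNA helicase A, stood at 59.4, 70.3 and 86.9 CPM in the 3-library set, against 66.5 and 75.1 in the 2-library set. Its log2 difference was 0.01 with an interval from -0.35 to 0.37, and the libraries of the 3-library set spread more widely than the sets lay apart. Dhx36, which unwinds G-quadruplexes, had a difference of -0.06, and Ddx1, part of the tRNA ligase complex, one of -0.16. The log2 interval of Ddx1 ran from -0.36 to 0.05.

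The ribosome biogenesis list had 10 measured members, of which 1, Ddx24, passed, against 22.7% of all genes, and 7 of the 10 lay below 0, against 4097 of all 8201. Ddx55 had a log2 difference of -0.72 and an adjusted p of 0.0851 in limma. Ddx54 had a difference of -0.50 and an adjusted p of 0.0549, and it passed as lower without replicate 1 of the 2-library set or without replicate 3 of the 3-library set. Ddx31 had the highest estimate of the list at 0.78, but with only 16 to 34 reads per library its interval ran from -0.16 to 1.72. Ddx21 and its relative Ddx50, both nucleolar, had differences of -0.24 and -0.34. Ddx47, Ddx49, Ddx52 and Ddx56 lay between -0.14 and 0.26. Members of the list lay on both sides of 0, with a median of -0.10.

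Of the mRNA export helicases, Ddx39 and Ddx19a, which acts at the nuclear pore, had log2 differences of 0.08 and -0.03, with 0 of 2 called. Of the 3 measured translation and decay helicases 0 were called, where 22.7% of all genes were. Ddx3y, the Y-linked relative of the translation helicase Ddx3x, had 78.9, 71.1 and 77.0 CPM in the 3-library set, against 64.25 and 54.4 in the 2-library set. Those sets did not overlap, and its log2 difference of 0.35 had an adjusted p of 0.0935 in limma. Dhx34, an mRNA surveillance helicase, and Dhx33, which acts in translation initiation, had differences of 0.01 and -0.27. Dhx30, which acts on RNA in mitochondria, had a difference of -0.16 over its deepest event. Of members with no role listed, Dhx40 had a log2 difference of -0.56 with an adjusted p of 0.0971, Ddx59 one of -0.38 and Dhx57 one of 0.07. Dhx40 had 47.2, 57.3 and 49.9 CPM in the 3-library set, against 105 and 54.7 in the 2-library set, so that 1 library of the 2-library set stood well above the rest.

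Per length, as scaled reads per kilobase of the counted exon and junctions, the members spanned a wide range of levels. By the deepest event of each gene, Ddx24 had the highest mean level over the 5 libraries at 1109. Next came Ddx5 at 923, Ddx17 at 669 and Ddx1 at 650. Dhx30 followed at 360 and Ddx50 at 317. The place of Ddx5 in this order rests on its deepest exon, of 1550 nt. Over its 66-nt exon Ddx5 had 686, 730 and 697 CPM in the 3-library set, against 937 and 910 in the 2-library set. Ddx24 had 334.5, 322 and 355 CPM over its 130-nt exon in the 3-library set, against 276 and 265 in the 2-library set. Per length Ddx5 thus stood above Ddx24 over that shorter exon. At the low end Ddx31 stood at 15.5 among tested genes. The untested members were Ddx4 and Ddx43, which belong to germ cells, at 8.50 and 1.74 per kilobase, and Ddx11, a DNA helicase of chromosome cohesion, at 8.21. Ddx4 had 6 to 8 reads in the 3-library set, against 7 and 21 in the 2-library set, and Ddx43 had 0 to 4 reads in the 3-library set, against 2 and 1 in the 2-library set.

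**Figure D3:**
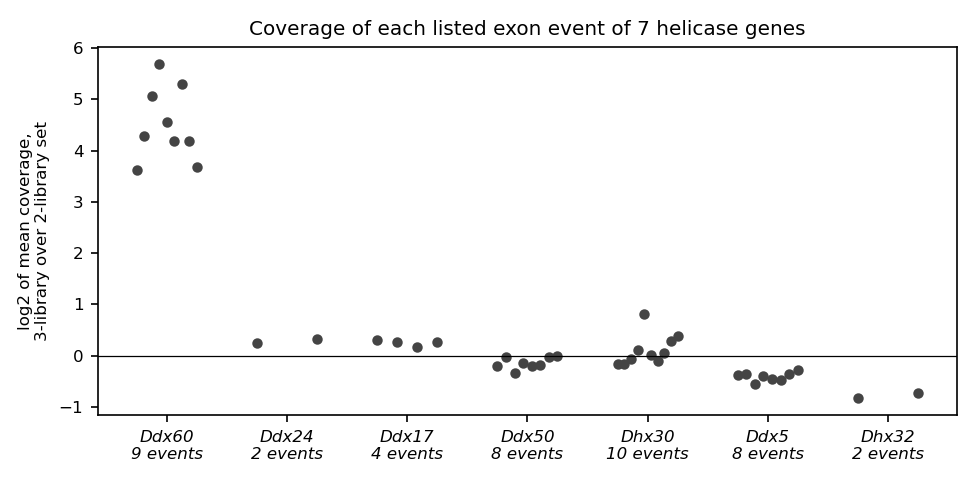
Log2 of the mean coverage of the 3-library set over that of the 2-library set, for each listed exon event of 7 helicase genes. Each point is 1 event, and events of a gene share transcripts and some reads. All 9 events of Ddx60 lie above 3.6 and all 8 of Ddx5 below 0, whereas the 10 of Dhx30 lie on both sides of 0.

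Of other genes of the same processes, a list of RNA helicases without a Ddx or Dhx symbol had 12 measured genes. Of these 1 was called, as higher. Of 41 measured helicase cofactors 5 were called, 1 as higher and 4 as lower, where 22.7% of all genes were called. Mov10, a helicase that binds with the microRNA machinery and is interferon-induced, was the 1 called gene of this helicase list. It was higher in the 3-library set, with a log2 difference of 1.11 and an adjusted p of 0.0272 in limma. The helicase Ifih1, counted above in the interferon response list, was higher too, as a description. Among cofactors Cmtr1, the mRNA cap methyltransferase that binds Dhx15, was higher by 1.17. Lsm14b, a relative of a partner of Ddx6, was lower at -0.65, Gpatch11, which carries a G-patch as activators of DEAH helicases do, at -0.67, Fam98b, a subunit of the tRNA ligase complex with Ddx1, at -0.45, and Cnot1, the scaffold of the deadenylase that binds Ddx6, at -0.43. The median of the cofactors was -0.15 on the log2 scale, like that of the DEAD and DEAH members. No difference between these lists and all genes was tested.

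Splicing of the helicase genes themselves was read from 91 exon events of the 34 genes. Most of their listed exons were included in nearly every transcript, so few could be tested. The inclusion level is the share of transcripts that hold the exon, from the reads of each form per form length. Over the 5 libraries pooled, 68 of the 91 exons (74.7%) had a level of at least 0.95, against 62.6% of all 27900 events, and 2 were below 0.05. The median level was 0.988 for the helicases and 0.979 for all events. The exon length was a multiple of 3, which keeps the reading frame, in 33 of 91 events (36.3%), against 44.7% of all events. For 18 of the 91 events (19.8%) there was at most 1 skipping read in all 5 libraries, against 20.01% of all events.

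With a mean of 20 reads per library and at least 10 reads of the rarer form, 16 events in 10 genes were tested and 24 genes had no tested exon. In limma 0 of the 16 were called, against 1.96% of the 7754 events tested (0.877% higher and 1.08% lower in the 3-library set), and a binomial quasi-likelihood fit also called 0. At an unadjusted p below 0.05 stood 1 of 16, against 12.1% of all tested events. The 2 exons of Ddx60 among them had almost no reads in the 2-library set. Of the other 14 exons the sets did not overlap for 2, against 28.5% of all tested events. An exon that did not pass is not shown to be unchanged. The authors' deposited table gave 4 of the 91 events an FDR below 0.05, in Dhx30, Ddx60, Ddx21 and Dhx34, against 4.87% of all events. Of the 16 tested exons 3 had such an FDR, against 12.6% of all tested events.

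**Figure D4:**
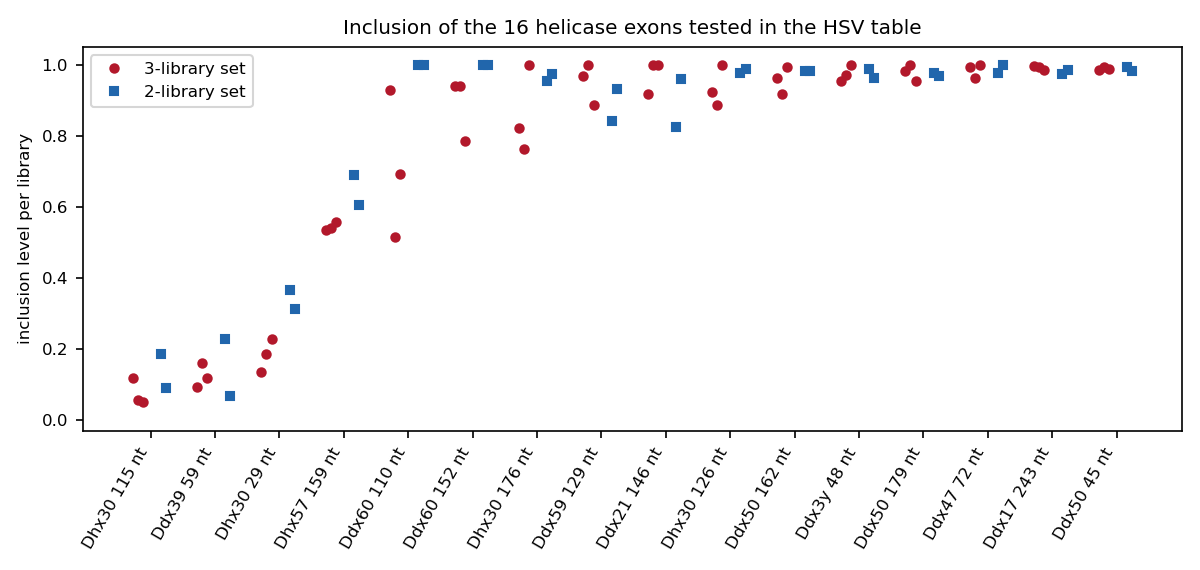
Inclusion level of the 16 tested helicase exons in each library of the HSV table, with circles for the 3-library set and squares for the 2-library set. Of the 16 exons 6 lie at 0.9 or above in every library, and 10 fall below 0.9 in at least 1. The Dhx30 29-nt exon and the Dhx57 159-nt exon lie lower in all 3 libraries of the 3-library set.

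Dhx30 had the exon with the smallest p, a cassette of 29 nt that does not keep the reading frame. Its inclusion level was 0.136, 0.187 and 0.227 in the 3-library set, against 0.366 and 0.313 in the 2-library set. All 3 libraries of the 3-library set lay below both of the 2-library set, over 116 to 142 reads per library. The logit difference was -0.82 ± 0.29 (SE), with a 95% interval from -1.42 to -0.21. Its unadjusted p was 0.0108 and its adjusted p 0.203 in limma, so it did not pass, whereas the authors' deposited table gave an FDR of 0.00295. Across the alternatives its adjusted p ranged from 0.123 with the quasi-likelihood fit to 0.575 without replicate 1 of the 2-library set, and it was 0.349 without replicate 2.

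The other 3 tested exons of Dhx30 had lower means in the 3-library set, each within the spread of the libraries. The 115-nt exon stood at 0.119, 0.0577 and 0.05002 in the 3-library set, against 0.185 and 0.0896 in the 2-library set. The 126-nt exon stood at 0.922, 0.887 and 1 in the 3-library set, against 0.978 and 0.987 in the 2-library set. The 176-nt exon stood at 0.821, 0.763 and 1 in the 3-library set, against 0.955 and 0.973 in the 2-library set. The 126-nt and 176-nt exons had the same skipping reads in every library, so these are not separate measurements. A second event of the same 126-nt exon, with 4 skipping reads, was below the read filter. It stood at 0.988, 1 and 0.984 in the 3-library set, against 0.984 and 0.981 in the 2-library set, with a higher mean in the 3-library set.

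The Dhx57 159-nt exon, which keeps the reading frame, was the only tested member exon with a pooled level between 0.4 and 0.7. Its level was 0.534, 0.539 and 0.556 in the 3-library set, against 0.691 and 0.605 in the 2-library set. The sets did not overlap, but with 43 to 79 reads per library the logit difference of -0.41 had an interval from -1.26 to 0.45, and an adjusted p of 0.774 in limma.

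The 2 tested exons of Ddx60 passed the filter only through the 3-library set. The 110-nt exon had levels of 0.928, 0.516 and 0.692 over 47, 37 and 44 reads in the 3-library set, against 1 and 1 over 1 and 6 reads in the 2-library set. With so few reads in the 2-library set the logit difference was -0.55 with an interval from -3.83 to 2.73, while the authors' deposited table gave an FDR of 0.00782. The 152-nt exon stood at 0.941, 0.940 and 0.785 in the 3-library set, against 1 and 1 over 1 and 3 reads in the 2-library set. In Ddx60, 2 other exons, of 104 and 106 nt, were mostly skipped, at levels of 0.0493 and 0.0581 pooled over the 5 libraries. Each library of the 2-library set gave only 1 read for each of these exons, so both levels rest mainly on the 3-library set. A different 106-nt exon of the gene was mostly included.

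Ddx21 had a 146-nt exon at 0.917, 1 and 1 in the 3-library set, against 0.824 and 0.961 in the 2-library set. The sets overlapped, and the skipping reads numbered 5, 0 and 0 in the 3-library set, against 13 and 2 in the 2-library set. The logit difference was 1.425 with an adjusted p of 0.512 in limma, against an FDR of 0.0383 in the authors' deposited table. It was 2.29 without replicate 1 of the 3-library set and 0.95 without replicate 2, and it did not pass either way. Dhx34, named here after its values were seen, had a 175-nt exon below the read filter, with 9 skipping reads in all. Its level was 1, 1 and 0.881 in the 3-library set, against 0.945 and 0.75 in the 2-library set, and the authors' deposited table gave an FDR of 0.0266.

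Of the splicing regulators fixed for description, Ddx17 alone had a tested exon. That 243-nt exon was included at 0.997, 0.993 and 0.984 in the 3-library set, against 0.9751 and 0.986 in the 2-library set. The sets overlapped, and the adjusted p was 0.730 in limma. Ddx5 had no tested exon, since each of its 8 events had 1 to 5 skipping reads in all libraries together, and its pooled inclusion was above 0.999 in each. The remaining tested exons belong to Ddx39, Ddx3y, Ddx47, Ddx50 and Ddx59, with adjusted p-values from 0.748 to 0.999.

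The dCas9-SET2 table held 10 events in 7 members, Ddx39, Ddx50, Dhx30, Dhx33, Dhx37, Dhx57 and Dhx9. By the authors' deposited adjusted p, 0 of the 9 events that have one passed 0.05, against 4.96% of the 5287 events of the table with a value. No test was made on these runs, since 4 runs share a sample name. Levels below are from the reads of all 16 runs of a set summed, with exact 95% binomial intervals that cover counting error only. The runs held 56946 to 84870 reads in the second set, against 79799 to 106251 in the first set, and the median event had 4.78 reads per run.

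The deepest was the 110-nt exon of Ddx50 at chr10:62647534-62647643 on GRCm38, with a level of 0.331 (0.260 to 0.410) in the second set, against 0.272 (0.223 to 0.326) in the first set. A 139-nt exon of Dhx9, at chr1:153476424-153476562, was mostly skipped, at 0.0682 (0.0424 to 0.104) in the second set, against 0.0604 (0.0411 to 0.0856) in the first set. In both the intervals overlap widely, and the authors' deposited adjusted p was 0.996 for Ddx50 and 0.247 for Dhx9.

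The Dhx57 159-nt exon, at chr17:80278223-80278381, had a level of 0.576 (0.4295 to 0.721) in the second set, against 0.784 (0.661 to 0.882) in the first set. The authors' deposited table gave it a dPSI of -0.13, whose direction the headers do not state, and an adjusted p of 0.574. The median over runs was 1 in both sets, so the gap rests on the pooled reads. The Dhx30 126-nt exon, at chr9:110115036-110115161, stood at 0.915 (0.837 to 0.965) in the second set, against 0.964 (0.899 to 0.992) in the first set. The 29-nt exon of Dhx30, at chr9:110107941-110107969, stood at 0.144 (0.0760 to 0.242) in the second set, against 0.166 (0.0987 to 0.256) in the first set. The authors' deposited adjusted p was 0.553 for the 126-nt exon and 0.909 for the 29-nt exon.

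The largest difference between pooled levels, named after its values were seen, was in a 59-nt exon of the export helicase Ddx39. Its level was 0.385 (0.222 to 0.579) in the second set, against 0.135 (0.0498 to 0.282) in the first set, over 30 reads in each set. The authors' deposited table gave a dPSI of 0.206 and an adjusted p of 0.131. The intervals of all 10 events overlap between the sets. In 4 of the 10 the authors' deposited dPSI had the other sign than the difference of the pooled levels, second set minus first.

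**Figure D5:**
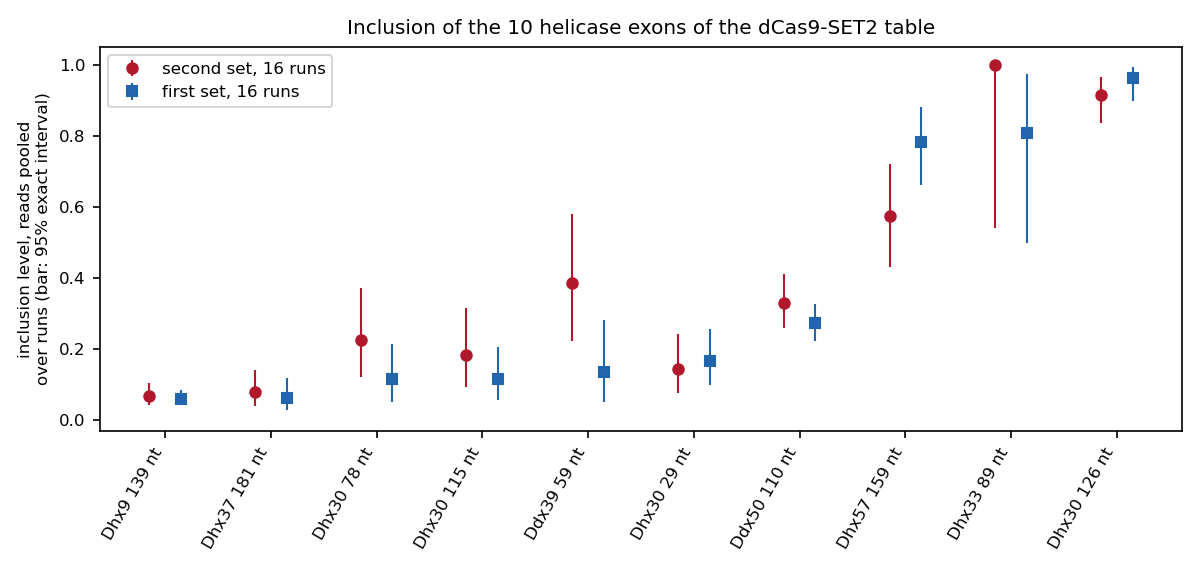
Inclusion level of the 10 helicase exons in the dCas9-SET2 table, from reads pooled over the 16 runs of a set, with the second set left of the first set. Bars are exact 95% binomial intervals for counting error only, and they overlap between the sets for all 10 exons.

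For 6 of the 10 events an event of the HSV table in the same gene has the same lengths of exon and neighbouring exons. The Dhx30 29-nt exon, at 0.136 to 0.227 in the 3-library set and 0.313 to 0.366 in the 2-library set, stood at 0.144 and 0.166 in the second and first sets of the dCas9-SET2 table. The Dhx57 159-nt exon, at 0.534 to 0.556 in the 3-library set and 0.605 to 0.691 in the 2-library set, stood at 0.576 and 0.784 in the second and first sets. The Ddx39 59-nt exon, with 0.0944, 0.162 and 0.119 in the 3-library set against 0.228 and 0.0670 in the 2-library set, stood at 0.385 and 0.135 in the second and first sets. These 3 cassettes were thus partly skipped in both tables. The libraries and depths differ between the tables, and no comparison of level was made across them.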

How the data were processed

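Inclusion and skipping read counts per exon event, deposited as whole numbers joined by commas, were taken from the 2 tables of nucleus accumbens RNA. The submitters' processing notes name Bowtie2, STAR 2.4.1d, mm9 and mm10 but no role for any of them, and the event caller is not stated. The 5 library positions of the HSV table and the 32 run positions of the dCas9-SET2 table are unnamed. Per the file headers the authors give an inclusion level per library, a p-value and FDR (or adjusted p-value) per event, and a difference score, IncLevelDifference (first set minus second set) or dPSI. The levels, recomputed from reads over form length, matched within 0.001 for 100% of values in both tables. Coordinates are printed only for the dCas9-SET2 table, where 9 of 9 member exons with a RefSeq span lay inside it on GRCm38, against 2 of 90 in the HSV table.

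Inclusion was tested with limma 3.58.1 in R 4.3.3 on logit inclusion with 0.5 added per count, with precision weights from the reads, the spread fitted per read depth and Benjamini-Hochberg adjustment over 7754 events. Coverage was tested with limma on log2 of TMM-scaled reads (trims 0.3 and 0.05, 0.5 added), adjusted over 8201 genes. Levels per length divide by the mean form length weighted by reads, with exon length plus 150 for the including form and 150 for the skipping form. The fits were tested on simulated data. Calls were made at 0.05. Members and lists were chosen with earlier results of these data known. Named were member exons called here or by the authors' FDR within the read filter, Ddx17 as the only listed splicing regulator with a tested exon, members with changed coverage, and the 5 deepest dCas9-SET2 events; other names are given with their role groups. Alternatives covered scaling, filters, added counts, weights, the authors' FDR and each library left out. The 48 samples of other assays were not analysed here.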

Additional observations from a re-analysis of the deposited data

How the results depend on the processing

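No paired analysis was possible because the library positions carry no replicate numbers. No helicase gene had a called exon under any fit made here, and 3 had one by the authors' deposited FDR among the tested events. Over all tested events the count of 152 was 0 without weights, 245 with the binomial quasi-likelihood fit, 31 with no read filter, 974 by the authors' deposited FDR and 60 to 123 with each library left out. The number of helicase genes with changed coverage, 4 with Ddx60 counted, was 3 or 4 with a library of the 3-library set left out. Ddx5 and Dhx32 were called each time, while Ddx24 was lost without replicate 1 or 3 of the 3-library set. Ddx60 is counted here as a description, since it passed the filter only where it is high. With a mean of 50 reads the count was 3, since Ddx60 fell below the filter. Scaling by total reads or by median of ratios left the same 4 genes and moved the median of all genes by at most 0.03 on the log2 scale. The Ddx60 110-nt exon changed sign to 0.0025 on the logit scale with 1 added to each count, and with a library left out it ranged from -1.25 to 0.59. No member event of the dCas9-SET2 table passed 0.01, and none was called among the 9 with 20 reads in each set. The median over runs lay inside the counting interval for 10 of 20 pooled levels.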
